A study of Vitis amurensis with 6 samples.

Results

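Cold-gained sites are stretches of leaf chromatin of Amur grape (Vitis amurensis) that were listed as accessible after 2 h of cold and in no library of untreated leaves. Accessibility was measured by ATAC-seq, in which a transposase cuts open DNA, and a place rich in cuts is a transposase hypersensitive site (THS). Overlapping THSs (1 bp or more) of the 6 deposited lists were joined into 44710 merged regions, 39746 of them on chromosomes 1 to 19. A region was kept when at least 2 of the 3 cold libraries and none of the 3 control libraries had a THS in it and when its merged width was at least 217 bp, the width of the narrowest THS of control replicate 2. This rule left 583 cold-gained sites among 31279 regions of that width on chromosomes 1 to 19, or 1.86%. The sites were chosen by the presence of THSs in these lists and by merged width, so their presence, scores and widths are given as descriptions without a test.

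The cold group was sampled 2 h after one-month-old wild-type in vitro plants were moved to 4°C, in 3 libraries. The control group consisted of 3 libraries of untreated plants at 26°C (0 h). Both groups were under light, and each library came from leaves pooled over several plants according to the study. No library was taken from plants kept at 26°C for 2 h, so the effects of cold, elapsed time and transfer cannot be told apart. The lists held 13350, 15694 and 13942 THSs in cold replicates 1, 2 and 3, against 18770, 19537 and 13019 THSs in control replicates 1, 2 and 3. They carry no read numbers, and the read depth behind a THS is unknown from them. The study reports uniquely mapped reads per library, which were not used here. Cold replicates 1 and 3 were below all control libraries in these reads, and cold replicate 2 was within the control range. Among the lists, cold replicates 2 and 3 stand apart by their narrow THSs, whose median width was 184 and 171 bp. In cold replicate 1 the median was 341 bp, and the control medians spanned 348 to 384 bp. Results that rest on them are therefore given by replicate. Leaf identity could not be checked from site lists.

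In plants, chilling is relayed to transcription factors such as ICE1, which switches on the CBF genes. CBF proteins bind the DRE/CRT element in promoters of cold-responsive genes. Regulatory DNA that is bound by transcription factors is usually depleted of nucleosomes, and it is this depletion that the transposase detects. Accessibility alone does not name the factor that binds or the gene it acts on. Sequences, motifs and genes at the sites were not analysed here.

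The pair of cold replicates 2 and 3 held the largest number of cold-gained sites. It accounted for 259 sites (44.4%), while cold replicates 1 and 2 held 150 (25.7%) and cold replicates 1 and 3 held 105 (18.0%). All 3 cold libraries had a THS in 69 sites (11.8%), which is 0.221% of the regions of 217 bp or wider. Most cold-gained sites therefore lacked a THS in 1 cold library. Without cold replicate 1, 2 or 3 the count was 295, 170 or 217, and without control replicate 1, 2 or 3 it was 892, 910 or 723. The fall and the rise follow largely from the rule. Without a cold library both others must hold a site, and without a control library only 2 lists can exclude it. In 62 of the 514 sites held by a pair (12.1%), the absent cold library had a THS within 1 kb, and the median distance to its nearest THS was 11.2 kb for cold replicate 1, 9.98 kb for cold replicate 2 and 7.35 kb for cold replicate 3.

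Most regions with the same cold replicates also had a control THS. Of 3527 regions with a THS in all 3 cold libraries, 69 (1.96%) had none in any control library. The share without a control THS was 22.7% of 1142 regions held by cold replicates 2 and 3 alone among the cold libraries, 12.6% of 1195 held by replicates 1 and 2, and 14.6% of 721 held by replicates 1 and 3.

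Cold replicate 1 had 2894 regions of 217 bp or wider without a THS in any control library, and 324 of them (11.2%) were seen in another cold library. Cold replicate 2 had 1030 such regions, of which 478 (46.4%) were seen again, and cold replicate 3 had 722, of which 433 (60.0%) were seen again. Among regions of 217 bp or wider, most of what cold replicate 1 added to the control lists was thus listed in that library alone. The limit acts unequally on these shares, since a lone THS passes it only when it is that wide itself. Median THS widths were 341, 184 and 171 bp in cold replicates 1, 2 and 3. No difference between the cold libraries is therefore read from the shares seen again. For comparison, the regions of control replicates 1, 2 and 3 without a cold THS numbered 6993, 8326 and 3769, and 28.9, 25.3 and 40.4% of them were seen in another control library.

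With the groups exchanged, the rule found 2621 control-only sites (8.38% of the regions), 4.50 times the number of cold-gained sites. All 3 control libraries held 411 of them (1.31% of the regions). The count of control-only sites was 3983 without cold replicate 1, and 1039, 933 and 1516 without control replicate 1, 2 or 3. The cold-gained sites were fewer in all 16 settings run, with a ratio between 1.03 (without control replicate 2) and 22.8 (limit on every THS). Settings without 1 library put unlike demands on the groups. The reduced group needed a THS in both remaining libraries, and only 2 of its lists could exclude a site of the other group. Control replicates 1 and 2 had longer lists, and all control lists had wider THSs than cold replicates 2 and 3. The part of this in the counts was tested only through the 16 settings. The part of read depth was not tested. The study's own test compared read counts per THS, a different measure, and reported more positively than negatively enriched THSs after 2 h of cold. Counts of listed sites therefore do not give the balance of gained and lost accessibility. The pair of control replicates 1 and 2, the longest lists, held 1099 control-only sites, the pair of control replicates 2 and 3 held 599, and the pair of control replicates 1 and 3 held 512. In both groups the sites held by all 3 libraries were the fewest of these classes.

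**Figure D1:**
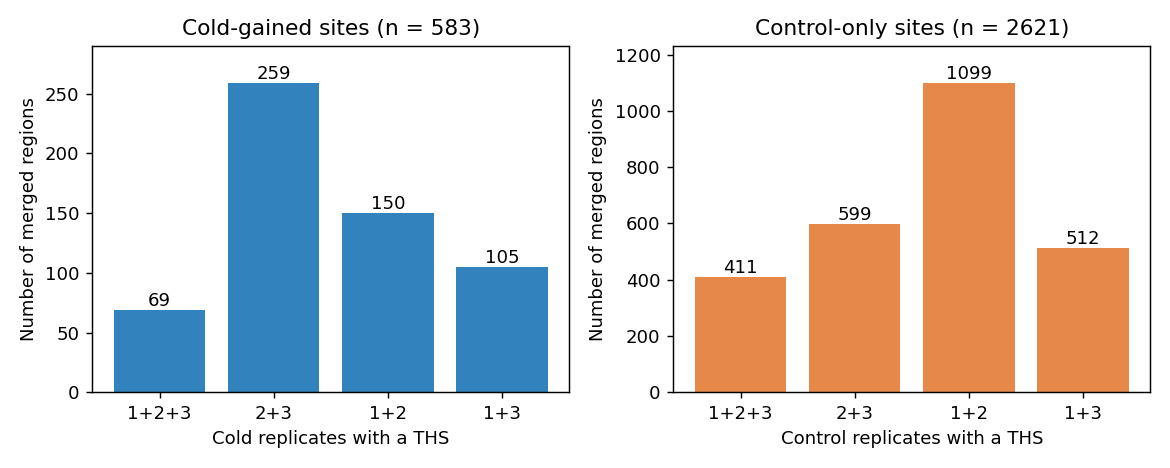
Bars give the number of merged regions on chromosomes 1 to 19 of at least 217 bp, by the replicates that hold a THS, for cold-gained sites (left) and control-only sites (right); the vertical scales differ. Cold replicates 2 and 3 hold 259 of the 583 cold-gained sites, and 69 were held by all 3 cold libraries.

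The width limit was met by the merged region more often than by its THSs. Cold-gained sites were 217 to 897 bp wide, with a median of 317 bp, against 524 bp for control-only sites and 377 bp for all regions of at least 217 bp. In 65 sites (11.1%) no cold library had a THS of 217 bp or wider, in 372 sites (63.8%) 1 library had one, in 135 sites 2 libraries had one and in 11 sites all 3 had one. Every library that held the site had a THS of 217 bp or wider in 132 sites (22.6%). The narrowest THS was 203, 111 and 106 bp in cold replicates 1, 2 and 3, against 207, 217 and 199 bp in control replicates 1, 2 and 3.

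THSs inside cold-gained sites differed in width between the cold libraries in the way that whole lists did. Cold replicate 1 had 324 THSs in these sites with a median width of 294 bp (203 to 827 bp). Cold replicate 2 had 484 with a median of 201 bp (111 to 588 bp), and cold replicate 3 had 435 with a median of 185 bp (106 to 467 bp). A THS of at least 217 bp was present in 92.6% of the sites of cold replicate 1, 45.0% of those of cold replicate 2 and 37.0% of those of cold replicate 3. With the limit put on every THS before merging, 152 cold-gained and 3464 control-only sites were found.

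**Figure D2:**
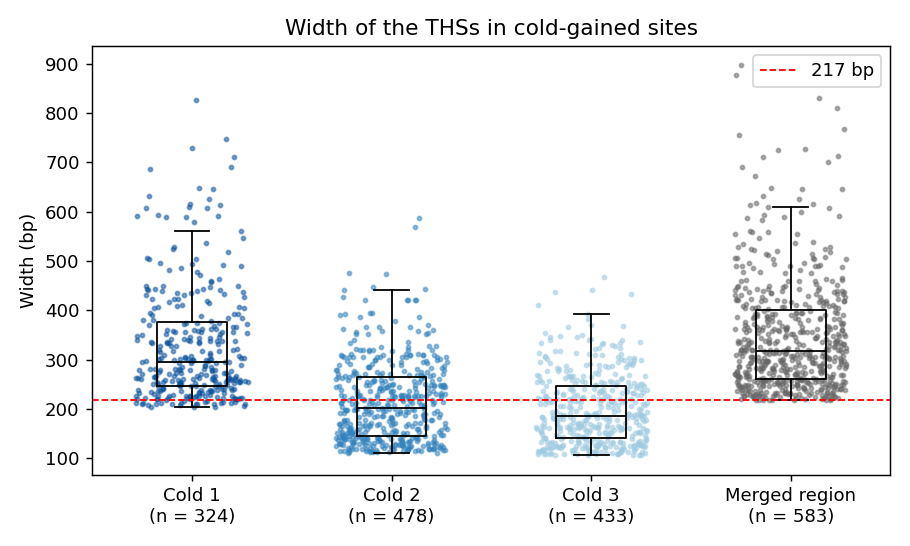
Each point is the widest THS of a cold library in 1 cold-gained site, or the merged region (right), with its width in bp; boxes give median and quartiles, whiskers reach 1.5 times the interquartile range, and the dashed line marks 217 bp. A THS of at least 217 bp was present in 92.6, 45.0 and 37.0% of the sites of cold replicates 1, 2 and 3.

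Near the limit, 12 cold-gained sites were 217 to 220 bp wide and 21 regions that met the rest of the rule were 213 to 216 bp wide. The median of the lowest score percentile, explained in the next paragraph, was 48.1 for the sites just inside and 42.8 for the regions just outside. In all, 716 regions of 111 to 216 bp met the rest of the rule, and 696 of them were held by cold replicates 2 and 3 alone. The median lowest score percentile of the 716 was 69.6, and that of the 583 cold-gained sites was 26.8.

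THSs in cold-gained sites came more often from the lower than from the upper part of their list, most clearly in cold replicate 1. Scores (taken as −log10 of q) are not scaled between libraries, so each THS was ranked by its percentile among all THSs of its own list. The median score in cold-gained sites was 2.88 in cold replicate 1, 4.14 in cold replicate 2 and 3.93 in cold replicate 3, and the median percentiles were 34.4, 42.8 and 45.1. Of the THSs in these sites, 68.2, 55.0 and 56.1% ranked below the middle of the list in cold replicates 1, 2 and 3. In 264 sites every holding library ranked the site below the middle of its list. In 146 sites every holding library ranked it at or above the middle, in 31 at or above the 80th percentile and in 6 at or above the 90th percentile. For the lowest percentile among the holding libraries, the median was 26.8 in cold-gained sites, 23.2 in control-only sites and 70.1 in the 2837 regions of that width present in all 6 lists. As a minimum over libraries, this value lies below the usual rank of a site. The narrower regions of the preceding paragraph ranked higher, so the low values hold for sites above the width limit.

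Sites held by all 3 cold libraries had higher scores than those held by pairs. Their median scores were 3.85, 6.93 and 5.52 in cold replicates 1, 2 and 3. Sites of cold replicates 2 and 3 had median scores of 4.86 and 4.00. Sites of cold replicates 1 and 2 had 2.73 and 3.47, and sites of cold replicates 1 and 3 had 2.73 and 3.20. Pairs that included cold replicate 1 were thus the weakest in rank, with median lowest percentiles of 21.1 and 17.7, against 32.8 for the pair of replicates 2 and 3 and 41.3 for all 3. Across sites, score percentiles of cold replicates 2 and 3 correlated with a Spearman rho of 0.65 (328 sites), those of replicates 1 and 2 with 0.51 (219 sites) and those of replicates 1 and 3 with 0.46 (174 sites). The points of each value come from 2 libraries, and sites are not independent replicates.

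The 10 highest-ranked sites held by all 3 cold libraries lay 287 to 26243 bp from the nearest control THS (coordinates on the grape 12X genome, counted from 1). The first, chr9:2609716-2609962, scored 83.3 in cold replicate 1, 89.8 in replicate 2 and 68.6 in replicate 3, and its lowest percentile was 94.0. Its THSs shared 180 of 247 bp, with a control THS 648 bp away. The next, chr17:7518012-7518253, had scores of 67.9, 57.6 and 49.9, shared 164 of 242 bp and lay 6998 bp from a control THS. Both sites stood above the 90th percentile of every cold list.

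The site chr2:6668268-6668628 had scores of 45.4, 46.9 and 31.7 in cold replicates 1, 2 and 3, with a control THS 19241 bp away. Its THS was 361 bp wide in cold replicate 1 but 154 and 153 bp in cold replicates 2 and 3, and the narrow THSs lay inside the wide one. The same nesting was found at chr15:7934341-7934620 (scores 16.5, 34.4 and 26.2), where the THS of replicate 1 spanned all 280 bp and those of replicates 2 and 3 spanned 156 and 165 bp. A control THS lay 287 bp from this site. At chr19:13851652-13851883, with scores of 32.0, 29.6 and 18.5, THSs of cold replicates 2 and 3 were 177 bp wide each inside a 232-bp THS of replicate 1, and a control THS lay 604 bp away.

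Sites chr4:22429500-22429788, chr2:11899851-11900076, chr16:13123490-13123928, chr13:10181601-10181824 and chr18:11234044-11234335 completed the 10. Their scores lay between 10.2 and 29.6, and the lowest percentile of each lay between 78.3 and 81.2. The distance to the nearest control THS was 5625, 377, 1115, 26243 and 14072 bp in that order of sites. At chr13:10181601-10181824 no THS reached 217 bp (210, 139 and 148 bp in cold replicates 1, 2 and 3), so its width rests on merging alone.

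Sites held by cold replicates 2 and 3 included scores as high. The site chr4:11017473-11017711 had scores of 73.1 and 70.0 in cold replicates 2 and 3, with THSs of 211 and 239 bp, and a control THS lay 4233 bp away. The site chr7:8019055-8019335 had scores of 54.8 and 56.1, with THSs of 130 and 281 bp, so the widths differed although the scores were close. At chr10:9023087-9023303, a site of exactly 217 bp, the scores were 74.6 and 46.9, and the THSs shared 215 bp. The sites chr12:11948425-11948692 (57.5 and 42.2) and chr5:19477528-19477832 (44.3 and 31.7) had a THS of at least 217 bp in both libraries, with 246 and 284 bp shared. None of these 5 sites had a THS in cold replicate 1.

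Scores were lower at the named sites held by the pairs that included cold replicate 1. The highest-ranked site of cold replicates 1 and 2, chr17:9651569-9651818, had scores of 12.6 and 31.9, and the nearest control THS was 43440 bp away. It was followed by chr10:15738237-15738492 (11.1 and 19.9) with a control THS 206 bp away, chr8:3070518-3070959 (11.8 and 7.19) with one 75 bp away, chr9:17525240-17525536 (5.09 and 8.87) and chr11:2430132-2430740 (4.45 and 6.03). The last was 609 bp wide in cold replicate 1, where the THS of replicate 2 spanned 234 bp. It tied in lowest percentile with chr18:16936959-16937788 (4.45 and 7.19) and was taken by chromosome order.

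The highest-ranked site of cold replicates 1 and 3 was chr12:11426949-11427235, with scores of 13.8 and 18.8 and a control THS 202 bp away. The others were chr14:2300687-2301091 (8.62 and 16.2), chr9:15395756-15396095 (7.14 and 11.0), chr6:15813654-15814008 (6.43 and 9.08) and chr7:16537881-16538197 (4.45 and 7.24). The THSs of chr9:15395756-15396095 were 289 and 340 bp wide, and the other 4 sites had a narrow THS of 112 to 132 bp in cold replicate 3. The distance to a control THS ran from 202 to 15883 bp for these 5 sites.

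**Figure D3:**
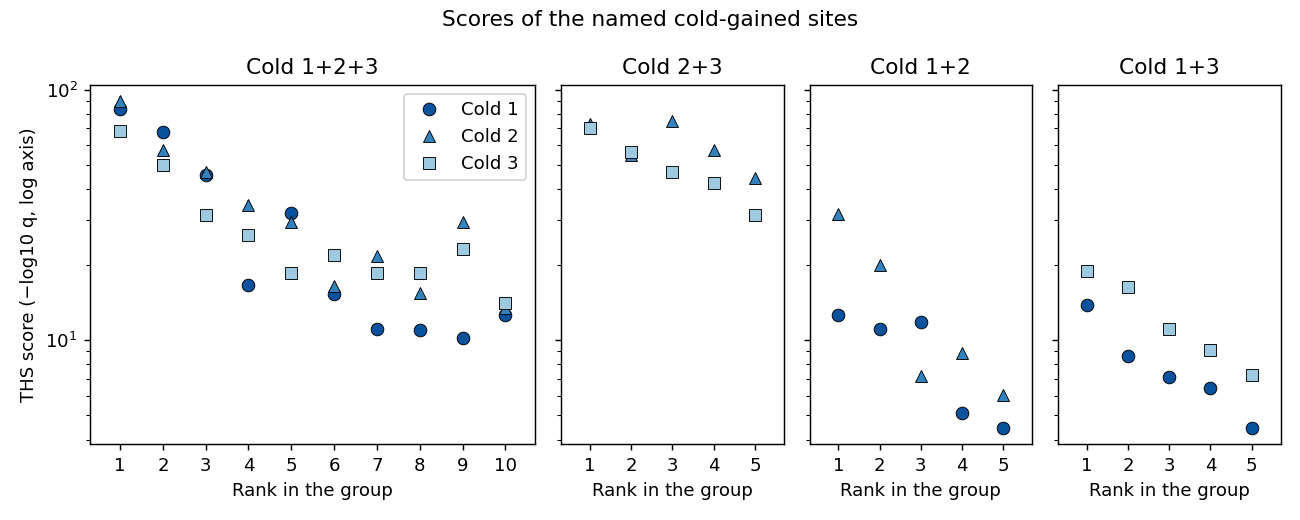
Points give the score (−log10 of q, log axis) in each cold library that holds the site, for the 10 highest-ranked sites held by all 3 cold libraries and the 5 highest-ranked of each pair, ordered by their lowest score percentile (the fifth place of cold replicates 1 and 2 is a tie). Scores reach 83.3, 89.8 and 68.6 for the first site of all 3 libraries and stay below 32 for pairs that include cold replicate 1.

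In 11 sites all 3 cold libraries had a THS of at least 217 bp, and these sites were singled out after their values were seen. The highest-ranked of them, chr3:19332661-19332972, scored 7.19, 17.3 and 20.3 in cold replicates 1 to 3, with THSs of 280, 222 and 242 bp. A control THS lay 578 bp away. It was followed by chr7:13855829-13856087, with scores of 6.43, 25.0 and 12.03, THSs of 222, 244 and 251 bp and a control THS 6308 bp away. The widest overlap of all 583 sites was also in this set, at chr15:19850781-19851270, where the 3 cold libraries shared 449 of 490 bp with scores of 2.73, 6.38 and 8.15. In the other direction, chr5:6389023-6389517 met the limit in all 3 libraries, but no base was covered by all of them.

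The cold libraries marked partly different bases within a site. All holding libraries shared a median of 132 bp (0 to 449 bp), or 42.3% of the merged region. Fewer than 50 bp were shared in 63 sites (10.8%) and fewer than 100 bp in 157 sites (26.9%). In 5 sites of all 3 cold libraries no base was common to all, since THSs were joined through a neighbour. Midpoints of the THSs lay a median of 44.2 bp apart between cold replicates 2 and 3, 72.0 bp between replicates 1 and 2 and 89.5 bp between replicates 1 and 3. Wide sites could have a small overlap (examples chosen after their values were seen): chr13:21496823-21497699 was 877 bp wide with 9 bp shared, and chr1:20811117-20811926 was 810 bp wide with 64 bp shared. When THSs had to cover at least 50% of the region to count, 347 cold-gained sites were found.

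Within 5 kb, a control THS was about as frequent beside cold-gained sites as beside all regions. The median distance from the edge of a cold-gained site to the nearest control THS was 3103 bp (quartiles 868 and 9701 bp), and the median distance from a control-only site to the nearest cold THS was 3904 bp. A control THS lay within 200 bp of 33 cold-gained sites (5.66%), within 1 kb of 159 (27.3%) and within 5 kb of 352 (60.4%). The nearest was 1 bp away. By library, a THS of control replicates 1, 2 and 3 lay within 5 kb of 41.5, 44.9 and 34.6% of cold-gained sites. For all regions of 217 bp or wider the shares were 42.8, 44.4 and 32.6%, with the THSs of the region itself left out. For control-only sites, a cold THS lay within 200 bp of 5.84%, within 1 kb of 25.3% and within 5 kb of 55.9%. The 3 cold lists together held fewer THSs than the 3 control lists, so these distances are set side by side only.

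At the other end, 13 cold-gained sites had no control THS within 50 kb. The farthest was chr14:29212561-29212799, 103731 bp from a control THS and held by cold replicates 1 and 2 at the 1.06th percentile of its weaker list. Most of these isolated sites were low in rank: the highest lowest percentile among them, 50.7, was that of chr6:2631903-2632198. The 13 sites included chr6:2640710-2640952, in the same stretch of chromosome 6 and also held by cold replicates 2 and 3.

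The median distance to the next cold-gained site was 209 kb, a value that also depends on how few sites there are. Another cold-gained site lay within 1 kb of 4 sites (0.686%), within 10 kb of 26 sites (4.46%) and within 100 kb of 177 sites (30.4%). The 26 sites formed 13 pairs and no larger group. The highest-ranked pair was on chromosome 9 between bases 11670828 and 11671861, where both sites were held by cold replicates 2 and 3. The closest pair, 211 bp apart on chromosome 1 between bases 3557340 and 3558249, were held by cold replicates 1 and 2 and by cold replicates 1 and 3.

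THSs beside the cold-gained sites were compared over libraries. The rule used only THSs within the regions, but whether their flanks are independent of that choice was not tested. A further THS of the same library within 5 kb of the site was found for 34.6, 37.2 and 33.3% of the sites in cold replicates 1, 2 and 3, against 41.5, 44.9 and 34.6% in control replicates 1, 2 and 3. Cold replicates 1 and 3 thus lay at or below the lowest control library, and cold replicate 2 lay within the control range. The means were 35.0 ± 2.00% in cold and 40.4 ± 5.24% in control libraries (SD, n = 3 each), and the difference of -5.32 percentage points, about the size of the control SD, did not pass the test (two-sided exact permutation p = 0.3, adjusted p = 0.36 over 6 measures, with 0.1 the smallest possible p). It was -16.9 points with the limit put on every THS and -1.88 points with lists of equal length.

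The direction turned when the overall density of each list was taken into account. Among all 31279 regions, 32.4, 31.0 and 27.6% had a further THS within 5 kb in cold replicates 1, 2 and 3, against 42.8, 44.4 and 32.6% in control replicates 1, 2 and 3. Cold-gained sites exceeded these shares by 2.21, 6.19 and 5.70 percentage points in the cold libraries, and by -1.31, 0.52 and 2.03 percentage points in the control libraries. The mean difference between the groups was 4.29 points, and cold replicate 1 and control replicate 3 differed by little. This mean difference was 1 of the 6 measures (exact permutation p = 0.1, the smallest possible, adjusted p = 0.36), but no conclusion is drawn from its p. Sites chosen for cold THSs and against control THSs are set here against regions held mostly by control libraries. The measure was also chosen after the data were seen.

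**Figure D4:**
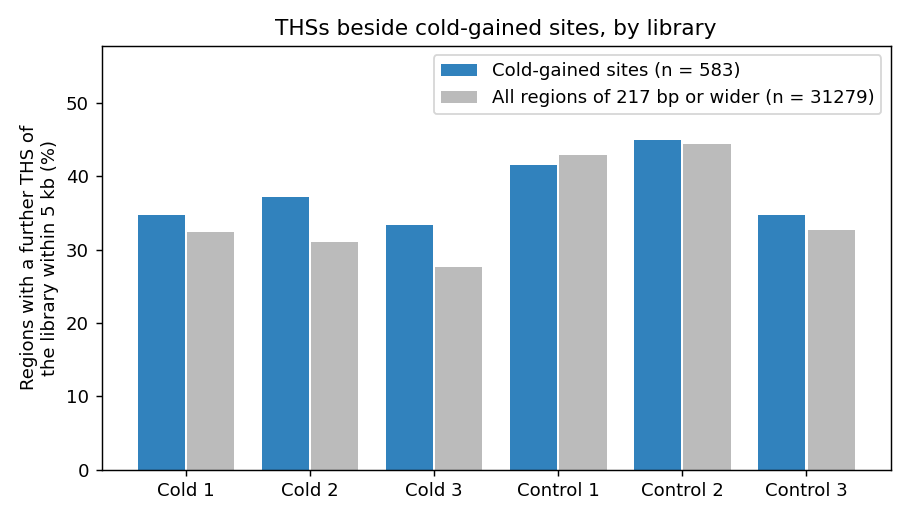
Bars give, for each library, the percentage of cold-gained sites (blue) and of all regions of at least 217 bp (grey) with a further THS of that library within 5 kb. Blue exceeds grey in all 3 cold libraries and in control replicates 2 and 3, by 0.52 to 6.19 percentage points, and falls below it in control replicate 1.

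Every chromosome held cold-gained sites, 20 on chromosome 17 to 43 on chromosome 18. As a share of the regions of 217 bp or wider, they ranged from 1.27% on chromosome 14 (30 of 2358, exact binomial 95% interval 0.860 to 1.81%) to 2.50% on chromosome 8 (33 of 1322, 1.72 to 3.49%). These intervals overlap and cover counting error only. Among sites held by all 3 cold libraries, chromosome 15 had the most, 9 of 69, and chromosome 18 had 7. On chromosome 14, 16 of 30 sites came from cold replicates 1 and 2.

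Cold-gained sites took similar shares of all parts of the chromosomes, whereas control-only sites were most frequent in the third and the fourth of 5 parts (28.2 and 27.2%). Each chromosome was divided into 5 equal parts from its first base to its last listed THS. The 2 end parts together held 245 of 583 cold-gained sites (42.0%, exact binomial 95% interval 38.0 to 46.1%), 780 of 2621 control-only sites (29.8%, 28.0 to 31.6%) and 35.5% of all regions of 217 bp or wider. Of the 2837 regions of that width in all 6 lists, the end parts held 38.0% (36.2 to 39.8%). Of the 716 narrower regions that met the rest of the rule, they held 38.0% (34.4 to 41.7%). Both of these intervals overlap that of the cold-gained sites, so a high share in the end parts is not particular to them. The middle part held 18.7% of cold-gained sites, 28.2% of control-only sites and 23.8% of all regions. On 16 of 19 chromosomes the share in the end parts, the outer share, of cold-gained sites was above that of all regions, and on 16 of 19 it was above that of control-only sites. By class the outer share was 39.1% for sites held by all 3 cold libraries, 37.8% for replicates 2 and 3, 48.0% for replicates 1 and 2 and 45.7% for replicates 1 and 3. It was 43.9% for the 132 sites with a THS of at least 217 bp in every holding library. These shares were looked at after the data were seen, and regions are not independent replicates.

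Over whole libraries, tests of the outer share did not separate the groups. With the cold-gained and the control-only sites both left out, the end parts held 36.4, 38.8 and 36.3% of the regions of cold replicates 1, 2 and 3, against 32.5, 38.2 and 35.1% in control replicates 1, 2 and 3. The means were 37.2 ± 1.39% in cold and 35.3 ± 2.85% in control libraries (SD, n = 3 each), with a p of 0.4 by an exact permutation test (adjusted p = 0.4). Among regions listed in 1 library only, the outer share was 38.4, 48.9 and 42.2% in cold replicates 1, 2 and 3, against 29.2, 39.7 and 34.8% in control replicates 1, 2 and 3 (exact permutation p = 0.2, adjusted p = 0.36). Control replicate 2 overlapped the cold libraries on both measures. The part of library differences in the position of the sites was not tested. When THSs below the median score of all lists were left out, the outer share was 36.8% of 258 cold-gained sites. It was 30.2% of 985 control-only sites and 34.8% of all regions. The interval of the cold-gained share (30.9 to 43.0%) included the value of all regions. This is not a test, since the interval treats sites as independent and rests on fewer sites than the 583.

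**Figure D5:**
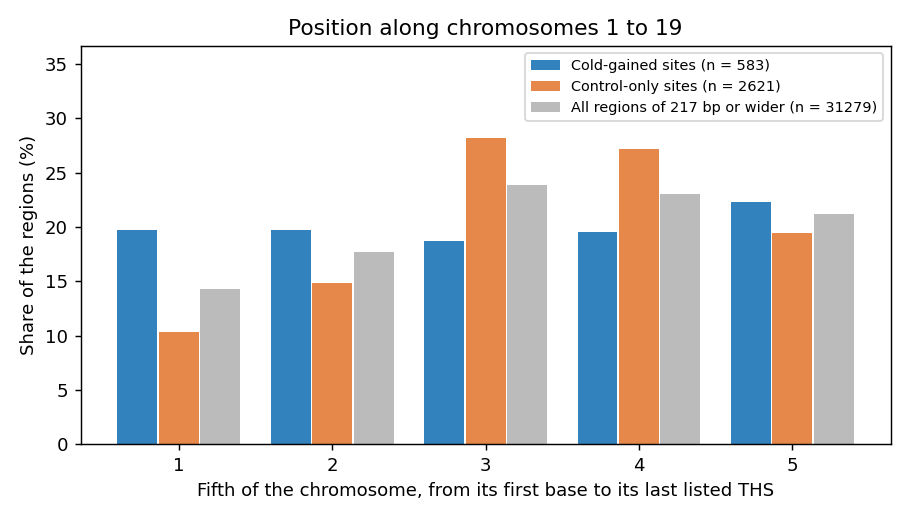
Bars give the percentage of cold-gained sites, control-only sites and all regions of at least 217 bp in each of 5 equal parts of chromosomes 1 to 19, from the first base to the last listed THS. Cold-gained sites lie between 18.7 and 22.3% in every part, while control-only sites are at 28.2% in the middle part and 10.3% in the first.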

How the data were processed

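Per the study's methods and the submitters' notes, the authors used FastQC and cutadapt on the reads, BWA for alignment against grape 12X, unique alignments without duplicates, and MACS2 on each library (q 0.05, extension 200 bp). Tool versions: not given in the sources used here. The deposited score was read as −log10 of q from its lowest values (1.30 to 1.31). A test of read counts was not possible from lists, and no genome or annotation was used, so sequences, genes and motifs were not analysed here.

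Lists were merged in Python 3.11.15 with numpy 2.4.6 and pandas 2.3.3, and bedtools 2.31.1 gave the same 44710 regions. The rule recovered 200 of 200 sites added to simulated lists of 80867 THSs. These sites lay clear of all other THSs, and their THSs were identical in place and wider than the limit. Full recovery therefore checks the counting only, not sites with partial overlap or nearby control THSs. Libraries were compared by two-sided exact permutation, and p-values of the 6 measures were adjusted after Benjamini and Hochberg. They were the share of sites with a THS within 5 kb, that share minus the share of all regions, and outer shares of whole libraries. Binomial intervals (scipy 1.17.1) are exact and cover counting error only. Plots were drawn with matplotlib 3.10.9. Named sites are the 10 (all cold libraries) or 5 (each pair) with the highest value of their lowest score percentile, with ties taken by chromosome and start. The members and rules were chosen with earlier results of these data known. Alternatives were a score threshold, equal lists, other width, overlap and merging rules, other distances, leaving out 1 library at a time and a replicate block.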

Additional observations from a re-analysis of the deposited data

How the results depend on the processing

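The 583 cold-gained sites became 258 when THSs under the median score were dropped, 152 with the limit on every THS, 1299 with no width limit, 334 at a merged width of at least 300 bp, 347 with 50% of the region covered and 69 with all 3 cold libraries. The 2621 control-only sites became 985 when THSs under the median score were dropped, 1524 for equally long lists and 411 with all 3 control libraries. Leaving out 1 library gave 170 to 910 cold-gained and 933 to 3983 control-only sites. Without cold replicate 1, 2 or 3, both remaining cold libraries had to hold a site, and 295, 170 and 217 sites were found, a stricter demand than 2 of 3 libraries. Without control replicate 1, 2 or 3 there were 892, 910 and 723, with only 2 control lists left to exclude a site. Of 57 alternatives, 37 kept the direction or stayed within 1.5 times a count or within the interval of a share. The cold-gained count stayed in only 4 of 15 alternatives and the control-only count in 8 of 15. The direction of the THSs within 5 kb was kept in 12 of 13, and the outer share stayed in 13 of 14. The replicate block is counted among the 12 and the 37, but it uses the same difference, so its direction could not change.

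The difference in THSs within 5 kb (-5.32 points) was -8.18 to -3.03 without 1 library and turned to 4.29 points against all regions of the same library, a measure chosen after the data were seen. With the replicate block it was -5.32 points (exact sign-flip p = 0.25, the smallest possible). Between cold and control libraries of the same replicate number, deviations in THS presence from the group mean correlated at -0.00848, 0.0183 and -0.0540 for numbers 1, 2 and 3. Such values cannot show whether the libraries were sampled or processed as pairs. The outer share (42.0%) was 36.8% with the stricter threshold and was 39.2 to 45.6% without 1 library. Read depth was not used here, and with 3 libraries against 3 no test could pass 0.05.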
